A study of Mus musculus with 21 samples.

Results

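Alas2, Epb42, Slc4a1, Klf1 and Gata1 are 5 genes of the red cell lineage, measured here in mouse tumours under 4 treatments. They were chosen by a list of erythroid genes, with the difference between anti-PD1 and placebo tumours in view, so that difference is described here and not tested. Each gene had 1 probe set, so all 5 were measured among 22206 probe sets tested and 19505 named genes. The tumours were raised by subcutaneous injection of the mouse hepatoma line Hepa1-6 into C57BL/6J females that were 5-6 weeks old, and every mouse of every arm shared this strain, sex and tumour line. Of the 21 mice, 5 received lenvatinib, an oral inhibitor of VEGF and FGF receptors and related kinases, at 10 mg/kg by gavage each day. A further 5 received anti-PD1, the antibody clone J43 against an inhibitory receptor of T cells, at 10 mg/kg into the peritoneum every 3 days for 5 doses. The combination arm, of 5 mice, received both agents, and the placebo arm, of 6 mice, received drug vehicle with polyclonal IgG. Mice were randomised at a tumour volume of 200 mm3. Collection was on day 13, with the last lenvatinib given 2 h and the last antibody 1 day earlier, and RNA from 30 mg of tissue went onto Clariom S mouse arrays.

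Red cells form in bone marrow, and in mice also in the spleen, from progenitors that switch on haem synthesis, globins and membrane proteins together. Gata1 and Klf1 are the transcription factors at the head of this programme: Gata1 binds GATA motifs, and Klf1 binds CACCC boxes in erythroid promoters and enhancers. Alas2 carries out the first step of haem synthesis in red cell precursors, Slc4a1 is the main anion exchanger of the red cell membrane, and Epb42 links that exchanger to the membrane skeleton. Gata1 is also expressed in megakaryocytes, mast cells and eosinophils. Young red cells that have lost their nucleus still carry some of these transcripts, so blood in a tumour piece can bring them in.

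The genes lie apart in the genome (RefSeq, GRCm38.p6). Alas2 spans chrX:150547417-150570622, Gata1 chrX:7959260-7976663, Epb42 chr2:121017891-121036877, Slc4a1 chr11:102348820-102365281 and Klf1 chr8:84901982-84905291. The 250 bases before the start site are shown for Alas2 and Klf1. Alas2 had the largest difference between arm means, and Klf1 is one of the factors known to act on erythroid promoters. Capitals mark the GATA motif (searched in the form AGATAA and the form AGATAG, and with a first T in the form TGATAA and the form TGATAG) and the CACCC box. Both strands were searched, so capitals that spell none of these are matches on the other strand.
Alas2 (chrX:150547167-150547416, plus strand): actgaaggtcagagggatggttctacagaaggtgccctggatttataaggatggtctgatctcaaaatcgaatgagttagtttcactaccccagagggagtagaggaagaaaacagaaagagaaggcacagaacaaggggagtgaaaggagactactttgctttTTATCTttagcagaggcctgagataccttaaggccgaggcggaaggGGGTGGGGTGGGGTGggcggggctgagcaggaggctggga
Klf1 (chr8:84901732-84901981, plus strand): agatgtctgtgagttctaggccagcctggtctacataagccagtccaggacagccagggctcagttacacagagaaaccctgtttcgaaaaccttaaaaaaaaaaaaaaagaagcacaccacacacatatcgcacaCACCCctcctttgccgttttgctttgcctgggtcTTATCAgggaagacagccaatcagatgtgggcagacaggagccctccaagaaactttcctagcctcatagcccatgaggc

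The Alas2 window held 1 GATA motif, starting 86 bases before the start site, and 3 CACCC boxes in a row. The Klf1 window held 1 GATA motif, 80 bases before the start site, and 1 CACCC box. The Epb42 window held 1 GATA motif and 0 CACCC boxes, and the Gata1 window held 0 GATA motifs and 2 CACCC boxes. That Gata1 window (chrX:7967911-7968160, minus strand) lies inside the gene span given above. The bases before the outer end of the span were thus not searched. The window of Slc4a1 was not analysed here. Of 32851 RefSeq promoter windows of the same length, 26.5% held a GATA motif, 52.0% a CACCC box and 11.8% both. These matches describe letters in a window and say nothing about binding.

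All values are log2 signals after RMA, in which arrays are brought to a shared distribution, so a level is relative within this set of arrays. Array medians lay between 5.32 and 5.49, correlations between arrays between 0.831 and 0.988. Precision is limited by how many arrays each arm holds. The hybridization controls, bacterial transcripts added before hybridization, were bright on 6 arrays (lenvatinib mice 1 and 2, anti-PD1 mouse 1, combination mouse 1, and placebo mice 4 and 6). Some differences of the 5 genes and some counts over their lists are given with and without these arrays, and others are given for all arrays only. Of 12 hepatocyte genes chosen as markers of the tumour line, 8 exceeded the 95th percentile of the negative controls on at least 1 array, and the other 4 on none. In bulk tissue, fewer cells of a type and less RNA per cell cannot be told apart.

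The erythroid genes lay within the range of the negative controls, as did most of the array. Against the 5222 negative-control rows of each array, all 105 values (5 genes in 21 mice) lay under the 95th percentile. Of all 22206 probe sets, 14721 (66.3%) also stayed under it on every array. Slc4a1 lay a mean of 2.64 log2 above the array's negative-control median (2.11 to 3.39 over the 21 mice), and Gata1 2.37 (1.75 to 2.81). Alas2 lay 1.82 above it (0.98 to 2.58) and Klf1 0.77 (0.11 to 1.79). Epb42 averaged -0.59 relative to that median and exceeded it in 3 of 21 mice. No fold change is therefore given for any of them, and differences below are differences in log2 signal between values within that range.

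The reading depends on which background is used. Against 1080 probe sets of olfactory receptors, a comparison added after the data were seen, 28 of the 105 values lay under the 95th percentile, where the negative controls gave 105. On the median array Slc4a1 ranked at the 90.0th percentile of the negative controls and Gata1 at the 87.5th, and both ranked at the 100th of the olfactory probe sets. Alas2 ranked at the 80.5th and 99.4th percentiles in the same order, Klf1 at the 63.8th and 96.1th, and Epb42 at the 32.6th and 64.4th. Epb42 thus stayed among the dim rows by both measures. The array's background rows that are numbered by GC content averaged 2.39 at GC number 3 and 7.16 at GC number 25, and the GC content of the erythroid probes is not given in the sources used here.

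**Figure D1:**
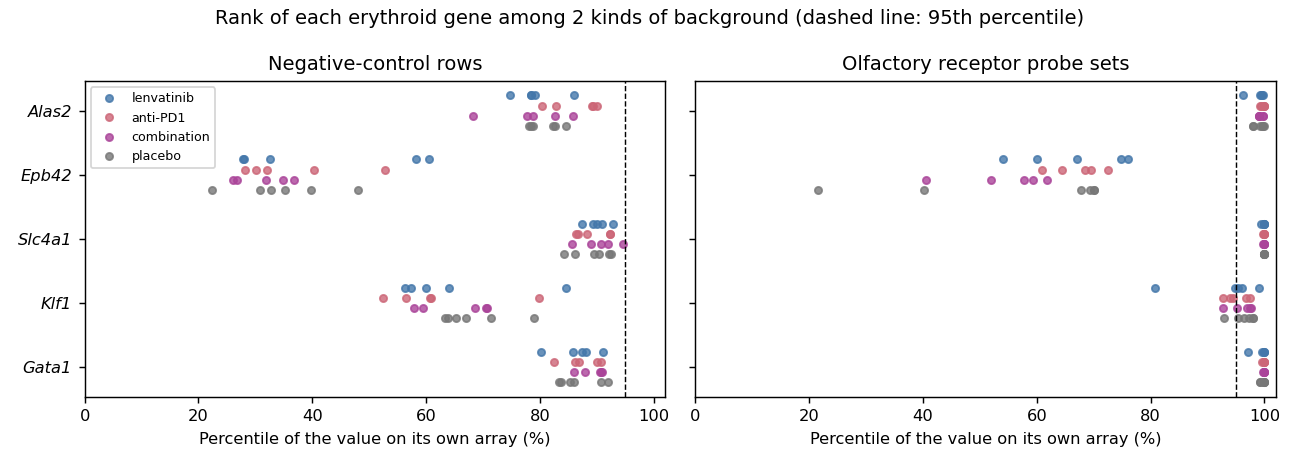
Percentile of each erythroid gene on its own array (x axis, %), among the negative-control rows on the left and the olfactory receptor probe sets on the right, with 1 point per mouse coloured by arm. All points lie left of the dashed 95th percentile on the left panel, while on the right panel Slc4a1, Gata1 and Alas2 lie to its right in every mouse and Epb42 stays to its left.

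Alas2 was higher in anti-PD1 than in placebo tumours, while the other 4 genes differed between those arms by less than the larger SD of the pair. Its log2 signal was 6.47, 6.80, 5.75, 6.24 and 6.79 in the anti-PD1 mice, against 6.04, 5.23, 6.15, 5.57, 5.70 and 6.07 in the placebo mice. In the anti-PD1 arm 4 of 5 mice lay above every placebo mouse, and mouse 3 lay among them. The same pattern held for 391 of 22206 probe sets (1.76%). The difference, anti-PD1 minus placebo, was 0.62 ± 0.21 (SE), from means of 6.41 ± 0.44 (SD, n = 5) and 5.79 ± 0.36 (SD, n = 6). It was 0.61 without the 6 arrays with bright controls and ranged from 0.48 to 0.78 over 32 other settings, including the removal of each mouse in turn.

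No rise of Alas2 signal was detected where the antibody was added to lenvatinib. These mice were outside the comparison in view at the choice of genes, but earlier results of these data were known. Alas2 read 5.85, 5.40, 5.78, 5.29 and 6.10 in the combination mice, against 5.73, 5.73, 5.80, 5.61 and 5.93 in the lenvatinib mice. The arms overlapped, and the lenvatinib mice stayed within a narrow band. The difference, combination minus lenvatinib, was -0.07 ± 0.22, with a 95% interval of -0.53 to 0.38 (limma, adjusted p = 0.979). It was -0.14 without the arrays with bright controls. Of all probe sets, 0% passed the adjusted threshold of 0.05 in this comparison, while 3.87% were higher and 2.53% lower at an unadjusted p under 0.05. With array weights 707 probe sets passed, and without combination mouse 1 there was 1, and none of the 5 genes passed in either.

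Combination tumours had lower Alas2 signal than anti-PD1 tumours, but the difference did not pass the threshold. It was -0.72 ± 0.22 (95% interval -1.18 to -0.27, limma, unadjusted p = 0.00316, adjusted p = 0.218), and -0.75 without the arrays with bright controls. The arms overlapped, with anti-PD1 mouse 3 at 5.75 inside the combination range of 5.29 to 6.10. This comparison shares the anti-PD1 mice that the choice of genes used. At an unadjusted p under 0.05, 619 probe sets (2.79%) were lower and 1078 higher, and 0% passed after adjustment. That count was 30 after subtraction of each array's negative-control median, 504 with array weights, 233 without the arrays with bright controls, 338 without combination mouse 1 and 87 without anti-PD1 mouse 4. The adjusted p of Alas2 stayed between 0.110 and 0.557 over 32 other settings.

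For Alas2, lenvatinib and the combination each differed from placebo by less than the SD between mice. Lenvatinib minus placebo was -0.03 ± 0.21 (95% interval -0.47 to 0.40, limma, adjusted p = 0.981), and combination minus placebo was -0.11 ± 0.21 (-0.54 to 0.32). The 2 comparisons share the placebo mice, and 0% of probe sets passed in each. At an unadjusted p under 0.05, 649 probe sets were higher and 899 lower for lenvatinib, and 224 higher and 288 lower for the combination. The order of the Alas2 means was anti-PD1, placebo, lenvatinib and combination, and the gap under anti-PD1 was the only one wider than the larger SD of its neighbours. The antibody's difference with lenvatinib minus that without it was -0.69 ± 0.30 for Alas2, given without a test because it holds the choosing comparison.

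**Figure D2:**
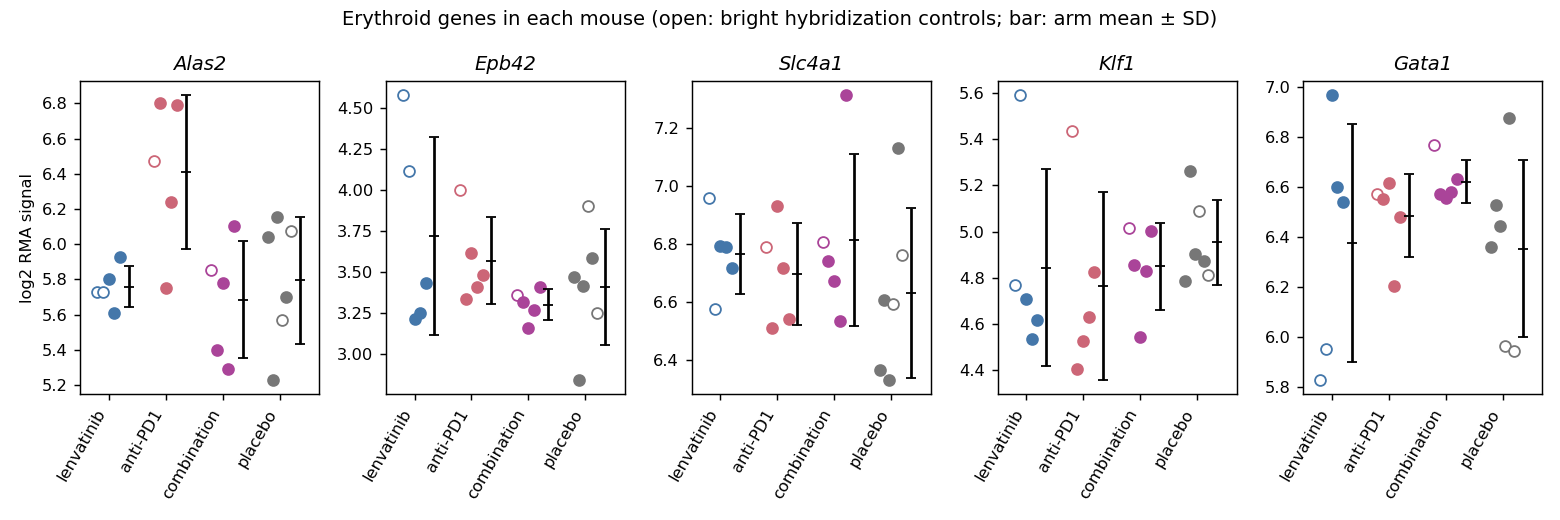
Log2 RMA signal (y axis, a separate scale per gene) of the 5 erythroid genes in each mouse, by arm; open points are arrays with bright hybridization controls, and bars are the arm mean ± SD (n = 5, 5, 5 and 6). Alas2 shows 4 of 5 anti-PD1 mice above every placebo mouse, and Klf1 shows 4 of 5 lenvatinib mice below every placebo mouse. The arms overlap for each gene.

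Slc4a1 differed little between arms beside its spread between mice. Its signal was 6.96, 6.58, 6.79, 6.79 and 6.72 in lenvatinib mice, 6.79, 6.51, 6.93, 6.72 and 6.54 in anti-PD1 mice, 6.81, 6.74, 6.67, 6.53 and 7.31 in combination mice, and 6.37, 6.61, 6.33, 6.59, 7.13 and 6.76 in placebo mice. Combination mouse 5 and placebo mouse 5 were the highest, and all arms overlapped. The arm means ran from 6.81 ± 0.30 in the combination arm to 6.63 ± 0.29 in the placebo arm (SD), and no neighbouring pair in that order differed by more than its SD. Combination minus lenvatinib was 0.05 ± 0.17 (95% interval -0.31 to 0.40, limma, adjusted p = 0.986), and anti-PD1 minus placebo was 0.07 ± 0.16. Both were the same to 2 decimals without the arrays with bright controls.

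Epb42, its partner at the membrane, had its highest values in lenvatinib mice. These read 4.58, 4.12, 3.21, 3.25 and 3.43 in lenvatinib mice, 4.00, 3.33, 3.61, 3.41 and 3.48 in anti-PD1 mice, 3.36, 3.31, 3.16, 3.27 and 3.41 in combination mice, and 3.47, 2.84, 3.41, 3.90, 3.58 and 3.25 in placebo mice. The highest 4 values, in lenvatinib mice 1 and 2, anti-PD1 mouse 1 and placebo mouse 4, all came from arrays with bright controls. Combination minus lenvatinib was -0.42 ± 0.24 (95% interval -0.91 to 0.08, limma, adjusted p = 0.802), and -0.01 without those arrays. Lenvatinib minus placebo was 0.31 ± 0.23 (adjusted p = 0.756) and -0.03 without them, and anti-PD1 minus placebo was 0.16 ± 0.23.

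The transcription factor Klf1 was lowest in the anti-PD1 arm by its mean. Its signal was 4.77, 5.59, 4.71, 4.53 and 4.62 in lenvatinib mice, 5.44, 4.40, 4.53, 4.63 and 4.83 in anti-PD1 mice, 5.01, 4.86, 4.55, 4.83 and 5.00 in combination mice, and 4.79, 5.26, 4.90, 5.09, 4.87 and 4.81 in placebo mice. The arms overlapped, but 4 of 5 lenvatinib mice and 3 of 5 anti-PD1 mice lay below every placebo mouse. The share of all probe sets with such a pattern was not computed. The highest lenvatinib value, in mouse 2, and the highest anti-PD1 value, in mouse 1, lay above every placebo mouse. Both came from arrays with bright controls. Anti-PD1 minus placebo was -0.19 ± 0.20, and -0.36 without the bright arrays. Lenvatinib minus placebo was -0.11 ± 0.20 (limma, adjusted p = 0.925), and -0.34 without the bright arrays. Combination minus lenvatinib was 0.01 ± 0.21 (95% interval -0.43 to 0.44, limma, adjusted p = 0.999), and 0.19 without them.

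Gata1, the other factor, was closely spaced in the combination arm. It read 5.83, 5.95, 6.97, 6.60 and 6.54 in lenvatinib mice, 6.57, 6.55, 6.62, 6.20 and 6.48 in anti-PD1 mice, 6.77, 6.57, 6.56, 6.58 and 6.63 in combination mice, and 6.36, 6.53, 6.44, 5.97, 6.87 and 5.95 in placebo mice. The 4 lowest, lenvatinib mice 1 and 2 and placebo mice 4 and 6, were on arrays with bright controls. Combination minus lenvatinib was 0.24 ± 0.21 (95% interval -0.19 to 0.67, limma, adjusted p = 0.870), and -0.12 without those arrays. Anti-PD1 minus placebo was 0.13 ± 0.20, and -0.09 without them.

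Over the 5 genes together, 4 were above 0 in anti-PD1 minus placebo, with a median difference of 0.13 that stands beside -0.002 for all probe sets. In combination minus lenvatinib 3 were above 0 and 2 below, with a median of 0.01 beside -0.01 for all probe sets. Without the arrays with bright controls 3 were above 0 in anti-PD1 minus placebo, with a median of 0.07, and 2 in combination minus lenvatinib, with a median of -0.01. In anti-PD1 minus placebo 0% of all probe sets passed the adjusted threshold, with 307 higher and 596 lower at an unadjusted p under 0.05.

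**Figure D3:**
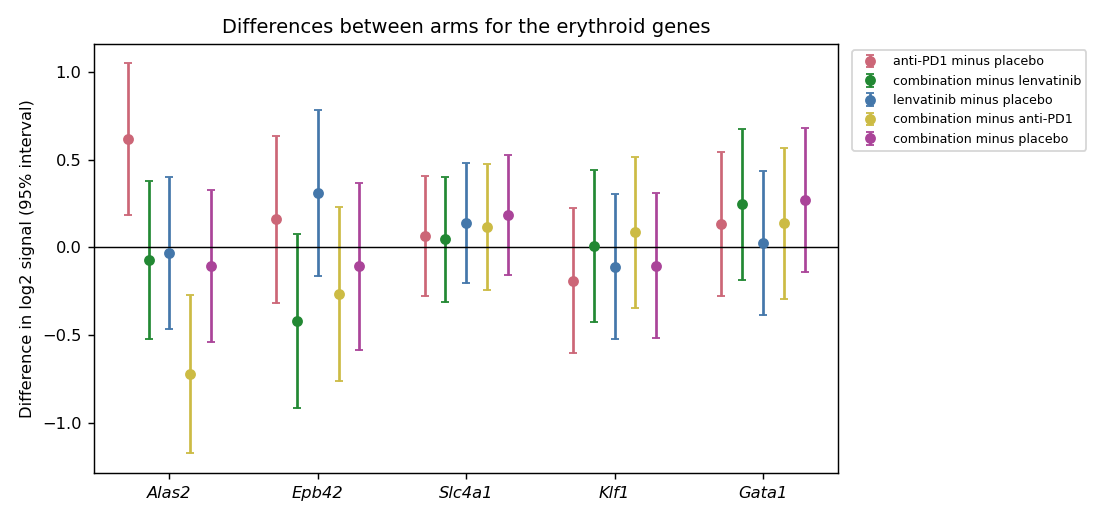
Difference in log2 signal between arms (y axis) for each erythroid gene, with the 95% interval of the limma fit, for 5 comparisons. Alas2 lies at 0.62 for anti-PD1 minus placebo, which was used in choosing the genes and is not tested, and at -0.07 for combination minus lenvatinib, from other mice.

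Signals of 3 of the 5 genes differed between arrays with bright and with other controls. With the arms in the model, Epb42 was higher on the 6 bright arrays by 0.50 ± 0.15 (means of 3.87 on bright and 3.35 on the other arrays, limma, adjusted p = 0.0113) and Klf1 by 0.36 ± 0.14 (5.12 and 4.75, adjusted p = 0.0438). Gata1 was lower by -0.37 ± 0.14 (6.17 and 6.57, adjusted p = 0.0367). Alas2 differed by 0.05 ± 0.17 and Slc4a1 by 0.04 ± 0.13, and neither passed (adjusted p = 0.824 and 0.819). Of all probe sets 21.0% were higher and 17.4% lower on the bright arrays, so a called gene was common in this comparison.

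The 5 genes did not vary together from mouse to mouse beyond what the test could call. Among the 10 pairs, taken as deviations from the arm means over 21 mice, 0 passed after adjustment (two-sided permutation tests, 100000 resamples). The strongest was Epb42 with Gata1, at r = -0.57 (permutation p = 0.00793, adjusted p = 0.0793) and rho = -0.42 (adjusted p = 0.282). It was -0.42 without the 2 mice farthest from the median of Epb42, and 0.13 on the 15 arrays without bright controls, while the 6 bright arrays are too few for a value. Alas2 had r between -0.10 and 0.03 with the other 4.

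Between the genes and 18 gene lists, 90 relations were computed after the data were seen, and 3 passed. Here and for the pairs, deviations were shuffled over all 21 mice with no allowance for the 4 arm means removed. These p-values may therefore be too small, and the 3 relations are not firm. Klf1 varied with the measured globins (r = 0.71, permutation adjusted p = 0.0153; rho = 0.71, adjusted p = 0.0243; 0.71 without the 2 farthest mice and 0.67 on the 15 arrays) and with megakaryocyte and platelet genes (r = 0.74, permutation adjusted p = 0.0135; rho = 0.71, adjusted p = 0.0243; 0.56 and 0.84). Gata1 varied with haem synthesis genes (r = 0.66, permutation adjusted p = 0.0372; rho = 0.69, adjusted p = 0.0243; 0.73 and 0.56). After cyclic loess normalization 0 of the 90 passed. The values of r were then 0.37 for Klf1 with globins, 0.69 for Klf1 with megakaryocyte and platelet genes and 0.63 for Gata1 with haem synthesis. After subtraction of the array median, Gata1 with haem synthesis no longer passed (r = 0.62). With the negative-control median subtracted 18 passed, so the calls depend on the scaling. The globins were themselves dim, with all 6 measured under the 95th percentile of the negative controls on every array.

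By correlation with the mean of the 5 centred genes over the 21 mice, given as a description, the most similar named probe sets were Dmp1 (r = 0.88), Lhx6 (0.82), Il25 (0.82), Kcnh4 (0.81) and Vmn2r38 (0.81), none of them on the erythroid lists. Among the 3429 probe sets with a mean above the 95th percentile of the negative controls, they were Radil (0.80), Cpz (0.64), Krtap4-8 (0.63), Lce1b (0.61) and Sh3bp4 (0.60). For Alas2 alone the most similar were Mest (0.78), Rnd3 (0.73) and Yes1 (0.71), and among the brighter probe sets Palld (0.66), Blcap (0.66) and Nid1 (0.64).

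The wider erythroid programme was split between higher and lower values in both antibody comparisons. Of 74 genes on 6 erythroid lists, 63 were measured and 11, among them the adult globins Hba-a1, Hba-a2, Hbb-bs and Hbb-bt, had no match among the named probe sets and were not analysed here. Of the 63, 47 stayed under the 95th percentile of the negative controls on every array, where 66.3% of all probe sets did. In anti-PD1 minus placebo 30 were above 0 and 33 below, with a median of -0.01. In combination minus lenvatinib 27 were above 0 and 36 below, with a median of -0.06; 0 passed by limma, and 3 were higher and 2 lower at an unadjusted p under 0.05, near the 3.87% and 2.53% of all probe sets. Without the arrays with bright controls 35 were above 0 and 28 below in that comparison, with a median of 0.04, and the counts in anti-PD1 minus placebo were again 30 and 33.

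All 6 measured globins stayed within the negative-control range, and levels of different probe sets are not compared. Hba-x, an embryonic alpha-type globin, averaged 4.83 ± 0.36 in lenvatinib, 4.94 ± 0.27 in anti-PD1, 4.75 ± 0.48 in combination and 4.82 ± 0.34 in placebo mice (SD). The embryonic Hbb-y, the theta-type Hbq1a and also Hbb-bh2 had arm means between 2.92 and 3.58. The median difference of the list was 0.05 in anti-PD1 minus placebo and 0.01 in combination minus lenvatinib, and -0.11 and 0.17 without the arrays with bright controls.

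Haem synthesis genes are used by all cells and by hepatocytes in particular. Of 7 measured, 1 was above 0 and 6 below in combination minus lenvatinib, with a median of -0.27, against a median of -0.03 in anti-PD1 minus placebo. Without the arrays with bright controls these medians were -0.18 and 0.06. In anti-PD1 minus placebo 5 of the 7 then lay above 0, where 3 did on all arrays. Alad, the second enzyme of the pathway, averaged 9.81 ± 0.57 in lenvatinib, 9.38 ± 0.92 in anti-PD1, 8.46 ± 0.97 in combination and 8.65 ± 1.11 in placebo mice (SD). Its combination minus lenvatinib difference was -1.35 ± 0.54 (limma, unadjusted p = 0.0210, adjusted p = 0.780). The 12 hepatocyte genes lay lower in the combination arm too, by a median of -0.91, with list levels of 6.10 to 8.09 in combination and 7.73 to 8.40 in lenvatinib mice, and their part in the Alad values was not tested. Alas1, the form of the first enzyme found outside red cells, differed by 0.82 ± 0.48 in the same comparison (limma, adjusted p = 0.807), and Ppox, a late enzyme of the pathway, by -0.14 ± 0.31 (adjusted p = 0.970).

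Of 14 red cell membrane genes, 12 stayed under the 95th percentile of the negative controls on every array, and the exceptions, Tmod1 and Ank1, are also used by muscle. Of the 14, 8 were above 0 and 6 below in combination minus lenvatinib, with a median of 0.01, and the median in anti-PD1 minus placebo was -0.10. Without the arrays with bright controls 11 were above 0 and 3 below in combination minus lenvatinib, with a median of 0.09. Tmod1, which caps actin filaments in red cells and in muscle, ranged from 5.87 to 8.12 in lenvatinib, 5.88 to 7.92 in anti-PD1, 6.18 to 8.78 in combination and 5.61 to 8.59 in placebo mice. The level of the skeletal muscle list ranged from 4.39 to 9.66, 4.45 to 9.49, 4.43 to 10.9 and 4.76 to 10.1 in the same order, and its part in the Tmod1 values was not tested. Ank1, the ankyrin of the red cell skeleton, reached 7.83 in 1 combination mouse and averaged 5.28 ± 1.43 there, against 5.16 ± 0.80 in the lenvatinib arm (SD). The blood group genes Rhd and Kel and the transporter-like Tspo2 had arm means between 3.98 and 5.21.

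Of 13 erythroid transcription factors, 6 were above 0 and 7 below in combination minus lenvatinib, with a median of -0.04, and the median in anti-PD1 minus placebo was 0.08. Without the arrays with bright controls 8 were above 0 and 5 below in combination minus lenvatinib, with a median of 0.07. Ldb1, which bridges Gata1 complexes at enhancers, was bright and even, at 9.26 ± 0.28 in lenvatinib, 9.35 ± 0.28 in anti-PD1, 9.30 ± 0.27 in combination and 9.16 ± 0.26 in placebo mice (SD). Lyl1, a relative of Tal1 that many blood cells express, averaged 7.22 ± 1.10 in combination and 6.14 ± 0.42 in lenvatinib mice (SD). Its difference was 1.08 ± 0.42 (limma, unadjusted p = 0.0185, adjusted p = 0.780). Lmo2, which joins the same complex, differed by 0.39 ± 0.23 (adjusted p = 0.803), and Klf3, a repressor that shares CACCC boxes with Klf1, by -0.29 ± 0.38 (adjusted p = 0.929).

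Of 13 genes of erythropoietin signalling and iron uptake, 6 were above 0 and 7 below in combination minus lenvatinib, with a median of -0.04, and the median in anti-PD1 minus placebo was -0.03. Without the arrays with bright controls these medians were 0.01 and -0.03. Stat5a, which carries the erythropoietin signal and that of many cytokines, averaged 6.46 ± 0.17 in combination and 5.86 ± 0.73 in lenvatinib mice (SD), a difference of 0.60 ± 0.24 (limma, unadjusted p = 0.0235, adjusted p = 0.780). It was named for its small p in this comparison, and all 21 Stat5a values lay under the 95th percentile of the negative controls. Tfrc, the transferrin receptor, averaged 4.84 ± 0.58 in combination and 4.19 ± 0.44 in lenvatinib mice (SD), a difference of 0.65 ± 0.31 (limma, unadjusted p = 0.0489, adjusted p = 0.780). Against placebo, at 3.81 ± 0.44 (SD), the combination differed by 1.03 ± 0.30 for Tfrc (limma, unadjusted p = 0.00245, adjusted p = 1.0), and all 21 values lay under the 95th percentile of the negative controls. Jak2, the kinase of the erythropoietin receptor, differed by -0.29 ± 0.55, the iron transporter Slc11a2 by 0.00 ± 0.26 and Stat5b by 0.01 ± 0.22.

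Of 10 late erythroid enzymes and chaperones, 3 were above 0 and 7 below in combination minus lenvatinib, with a median of -0.10, and the median in anti-PD1 minus placebo was 0.09. Ube2o, an enzyme that marks proteins for removal as red cells mature, ranged from 4.30 to 5.58 in combination and from 5.49 to 6.15 in lenvatinib mice, a difference of -0.58 ± 0.24 (limma, unadjusted p = 0.0246, adjusted p = 0.780). It was named for its small p in this comparison, and all 21 Ube2o values lay under the 95th percentile of the negative controls. Prdx2, an abundant peroxidase of red cells that other cells also make, had arm means between 11.10 and 11.26, and Blvrb, a biliverdin reductase, differed by 0.13 ± 0.26. The water channel Aqp1, found in red cells and endothelium, ranged from 5.43 to 8.16 in combination and from 5.22 to 7.35 in lenvatinib mice, a difference of 1.15 ± 0.70 (limma, adjusted p = 0.818).

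Lists of other cells varied in the size of their median difference between arms. In anti-PD1 minus placebo the macrophage list had a median of -1.17 (11 of 11 genes below 0), the T cell list -0.88 (9 of 9 below) and the skeletal muscle list -1.47 (12 of 12 below), while the endothelial list had 0.37 (10 of 10 above) and the mitosis list 0.60 (9 of 9 above). Without the arrays with bright controls these medians were -1.13, -1.02, -2.39, 0.44 and 0.20 in the same order, and 0.05 for hepatocyte genes. Macrophage list levels ran from 7.33 to 9.29 in anti-PD1 and from 8.82 to 9.85 in placebo mice, and T cell levels from 5.13 to 6.92 in anti-PD1 and from 6.76 to 7.80 in placebo mice. Endothelial levels ran from 6.01 to 7.79 in anti-PD1 and from 5.51 to 7.20 in placebo mice. Mitosis levels ran from 5.01 to 8.70 and from 5.00 to 8.10 in the same order. The 2 arms thus overlapped in each of these lists. Of all probe sets, 49.6% lay above 0 in anti-PD1 minus placebo. In combination minus lenvatinib the macrophage and T cell medians were 0.92 and 1.10, opposite in sign, and the mitosis median was -1.08. Lists of cells that share Gata1 were nearer to 0 in the first comparison for mast cells (-0.01) and megakaryocytes and platelets (-0.05) and lower for eosinophils and basophils (-0.81), and were 0.54, 0.14 and 0.68 in the second. Macrophages that recycle red cell iron had medians of -0.42 and 0.65, neutrophils -0.17 and 0.46, adipocytes 0.03 and 0.74, and hepatocyte genes 0.42 and -0.91. The part of these cells in the Alas2 values was not tested.

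**Figure D4:**
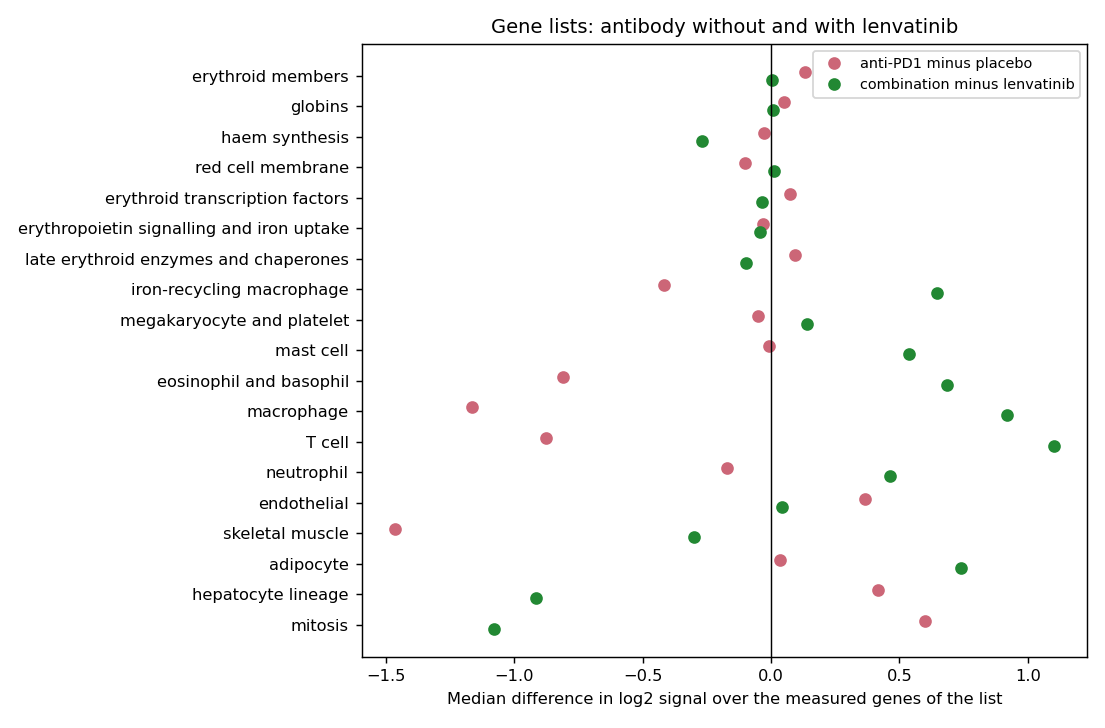
Median difference in log2 signal (x axis) over the measured genes of each list, for anti-PD1 minus placebo and for combination minus lenvatinib, with 1 point per list and comparison. The medians of the 5 erythroid genes and the 6 erythroid lists lie between -0.27 and 0.13, while the macrophage medians lie at -1.17 and 0.92 and the T cell medians at -0.88 and 1.10.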

How the data were processed

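Gene expression in 21 tumours, 1 per mouse, was read on Clariom S mouse arrays. The deposited values are log2 signals that the authors made with RMA and oligo, per the submitters' processing notes; no version is named, and the genome build is not given in the sources used here. RMA subtracts background, quantile-normalizes arrays and summarizes probes. Of 29129 rows, 22206 probe sets were tested and 6923 control rows were not. Names came from the platform annotation: 19572 probe sets had 1 symbol, 0 several and 2634 none.

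A model of 4 arm means was fitted with limma 3.58.1 (R 4.3.3) to all arrays, two-sided, with Benjamini-Hochberg adjustment over all probe sets and a threshold of 0.05, and was tested on simulated data. Arms came from the treatment labels. The mice are separate animals. The genes, lists and tests were chosen with earlier results of these data known. Per list, up to 3 genes with the highest mean and up to 2 with the smallest p in combination minus lenvatinib were named, with the 5 most similar probe sets. Some of those are summarised. Mouse numbers are shared between arms. Deviations of same-numbered mice had r over 0.1 in 15 of 30 pairs, with r from -0.635 to 0.562, which does not decide whether the numbers mark pairs. They were not taken as pairs in the main fit, and the mouse number was a block in an alternative.

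Alternatives covered filters on dim probe sets, scaling, eBayes settings, array weights, fits of 2 arms, the mouse number as a block, hybridization controls, thresholds and leaving out each mouse; the olfactory receptor background, lists without the bright arrays and the relations with lists were added after the data were seen.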

Additional observations from a re-analysis of the deposited data

Results flagged for a closer look

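Klf1 in lenvatinib mouse 2 read 5.59, the highest of the 5 lenvatinib mice, and its gap to the next mouse was 0.779 of the arm's range, above the critical value of 0.71 in Dixon's test. The other lenvatinib mice lay between 4.53 and 4.77, and the array of mouse 2 had bright hybridization controls. It was 1 of 20 groups tested, and chance flags about 1 in 20.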

How the results depend on the processing

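Over all settings, 0 of 632 tested differences of the 5 genes passed the adjusted threshold (smallest adjusted p = 0.110, combination minus anti-PD1), and 30 changed sign. Of 311 differences without a test, in anti-PD1 minus placebo and its change with lenvatinib, 14 changed sign, all for Slc4a1 or Gata1. For lenvatinib minus placebo, Alas2 became 0.0177 after cyclic loess, 0.00691 after subtraction of the array median and 0.0214 with the mouse number as a replicate block, Gata1 became -0.0659 after subtraction of the negative-control median and -0.0567 with the block, and Epb42 became -0.0666 with array weights and -0.0277 without the arrays with bright controls. For combination minus lenvatinib, Klf1 became -0.0280 after subtraction of the array median, and Gata1 -0.0541 with array weights and -0.117 without the bright arrays. The block changed no call. Leaving out each mouse in turn gave, for combination minus lenvatinib, -0.178 to 0.0239 for Alas2, -0.0790 to 0.116 for Slc4a1 and -0.0720 to 0.192 for Klf1; for lenvatinib minus placebo, -0.147 to 0.0376 for Alas2 and -0.122 to 0.162 for Gata1; and for combination minus anti-PD1, -0.00975 to 0.185 for Slc4a1 and -0.00593 to 0.253 for Klf1. The cause was not tested. Each value given here for a pair of arms was smaller than the larger SD of that pair over all arrays, though some exceeded the smaller SD.

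Probe sets called in combination minus anti-PD1 numbered 0, but 30 after subtraction of the negative-control median, 504 with array weights, 233 without the bright arrays and 0 to 338 without single mice. In combination minus lenvatinib they numbered 0, but 707 with array weights and 0 to 1 without single mice. Values within background were 28 of 105 by the olfactory receptors. Pairs of genes past the threshold were 3 after subtraction of the negative-control median, and relations with lists 18, against 0 relations after cyclic loess. That subtraction moved the median of all probe sets in anti-PD1 minus placebo to -0.14, and Slc4a1 there to -0.07. The 40th percentile filter kept 3 of the 5 genes, and the filter at the 95th percentile of the negative controls kept 0, so these give no value for the genes removed. No gene had several probe sets, so no alternative of that kind was run. Signal over background limits the reading of all 5 genes.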
